A study of Arabidopsis thaliana with 4 samples.

Results

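The genes described here encode proteins of the large (60S) subunit of the cytosolic ribosome of Arabidopsis, 60 loci for 28 proteins between L4 and L32, without the acidic stalk proteins. A gene was kept where the array annotation gives a probe set to it alone, which held for 41 of the 60, out of 13355 such genes in the whole series. These 41 genes encode 20 proteins. Of these, 16 had at least 2 paralogs on the array (37 genes) and 4 had 1.

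The 60S subunit holds the peptidyl transferase centre and the tunnel through which the growing protein leaves. In Arabidopsis nearly every protein of this subunit is encoded by a small family of paralogs, nuclear genes whose products are alike and can take the same place in the ribosome. Making ribosomes is one of the largest costs of a growing plant cell, and the transcripts of ribosomal protein genes are commonly abundant in dividing cells and scarcer in resting ones.

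The cells were MM2d, a suspension-cultured line of Arabidopsis thaliana kept in continuous darkness at 27 °C. A culture that had reached early stationary phase, 7 days after its own subculture, gave 5 ml of inoculum for 100 ml of fresh medium. The medium held 3% sucrose and 2 hormones, an auxin (NAA, at 0.5 mg/l) and a cytokinin (kinetin, at 0.05 mg/l), and was shaken at 130 rpm. Total RNA was taken on days 1, 3, 5 and 7 after this dilution and hybridised to 1 Affymetrix ATH1 array per day. No treatment or genotype differs between the 4 groups, and all come from 1 cell line.

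Since each day is a single array, replicate error is unknown and no difference between days could be tested. The values are MAS5 signals on a linear scale, and a signal under 25.26, the 40th percentile of all signals, was raised to that floor. Each array has the same trimmed mean signal (100.0), so a ratio is relative to all transcripts of its array and not to the cell. In bulk RNA fewer cells with a transcript and less transcript per cell cannot be told apart. A yardstick for the error of the measurement came from 96 genes with 2 probe sets, although most of these are dimmer than the genes described here. Between probe sets of 1 gene, a log2 ratio varied by 0.57 (SD) from day 1 to day 3, 0.36 from day 3 to day 5, 0.30 from day 5 to day 7 and 0.64 over the whole course, which leaves out any difference between cultures. The 3' to 5' signal ratio, a mark of RNA integrity, was highest on day 1 for 5 of 6 pairs of control probe sets, such as 1.45 against 1.05 to 1.18 for a pair of actin and 1.59 against 1.22 to 1.30 for a pair of ubiquitin. The exception was 1 of the pairs of GAPDH, at 1.12 on day 7 against 0.950 to 0.996. The other pair of actin had higher ratios, of 4.31, 3.63, 2.13 and 3.79 in the order of days, lowest on day 5. The other pair of ubiquitin had 3.88, 3.05, 2.96 and 2.98. The part of RNA integrity in the results was not tested. Of 20 marker genes listed to check the label, 10 for photosynthetic and 10 for dividing cells, 1 had a probe set of its own. This was ICU2, which encodes a DNA polymerase subunit, with signals of 170.5, 183, 292 and 168 in the order of days, so the label could not be checked with these lists.

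Most 60S protein genes had bright probe sets on day 1, and their median signal was lower on each later day. On day 1, 40 of the 41 probe sets had a signal between 599 and 3212 with a median of 2000.9, against a median of 36.3 for all probe sets on that array. The median of the same 40 was 1642, 892 and 612 on the following days. The 41st, AT3G48960 of L13, lay near the floor on all arrays and is described with its protein.

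Over the whole course, day 7 over day 1, the log2 ratios of the 41 genes centred on -1.66 (median, with quartiles of -1.99 and -1.29), a 3.15-fold lower signal. Of the 41, 38 were at least 2-fold lower and 0 at least 2-fold higher, while 10.5% of all 15292 measured probe sets were at least 2-fold lower and 13.1% at least 2-fold higher. Among the 2587 probe sets at least as bright on average as the dimmest of the 40, 23.3% were at least 2-fold lower. The 3 that were not 2-fold lower were AT3G48960 and the paralogs of L4, AT3G09630 and AT5G02870. Of the 41, 26 lay in the lowest 5% of all measured probe sets. All 40 bright genes were lower on day 7 by more than the SD of 0.64 between probe sets of 1 gene. The first quartile of all measured probe sets was -0.42, and the share of them lower by more than this SD was not counted.

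The difference was spread over all 3 steps and was largest in the middle one. The median log2 ratio was -0.36 for day 3 over day 1, -0.80 for day 5 over day 3 and -0.53 for day 7 over day 5. Signals were lower by any amount for 38, 40 and 41 of the 41 genes over these steps (42.2%, 48.4% and 48.1% of all measured probe sets) and for 40 over the course (42.2%). At least 2-fold lower were 2 genes on day 3 against day 1 (1.65% of all measured probe sets), 8 on day 5 against day 3 (3.81%) and 4 on day 7 against day 5 (2.71%). At least 2-fold higher were 0 genes at each step (4.02%, 6.24% and 2.94%). Lower at every step were 37 of the 41, against 12.7% of all measured probe sets. The 4 others were AT3G48960, AT5G60670 of L12 and AT2G01250 of L7, which were slightly higher on day 3 than on day 1 (log2 ratios of 0.10 and 0.00 for the last 2), and AT5G67510 of L26, which was higher on day 5 than on day 3. Counting decreases only, the largest was from day 3 to day 5 for 29 of 41 genes (35.8% of all measured probe sets), from day 5 to day 7 for 11 (27.4%) and from day 1 to day 3 for 1 (20.3%). The 29 include AT3G48960, and the count was 28 of the 40 genes above the floor on all arrays.

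**Figure D1:**
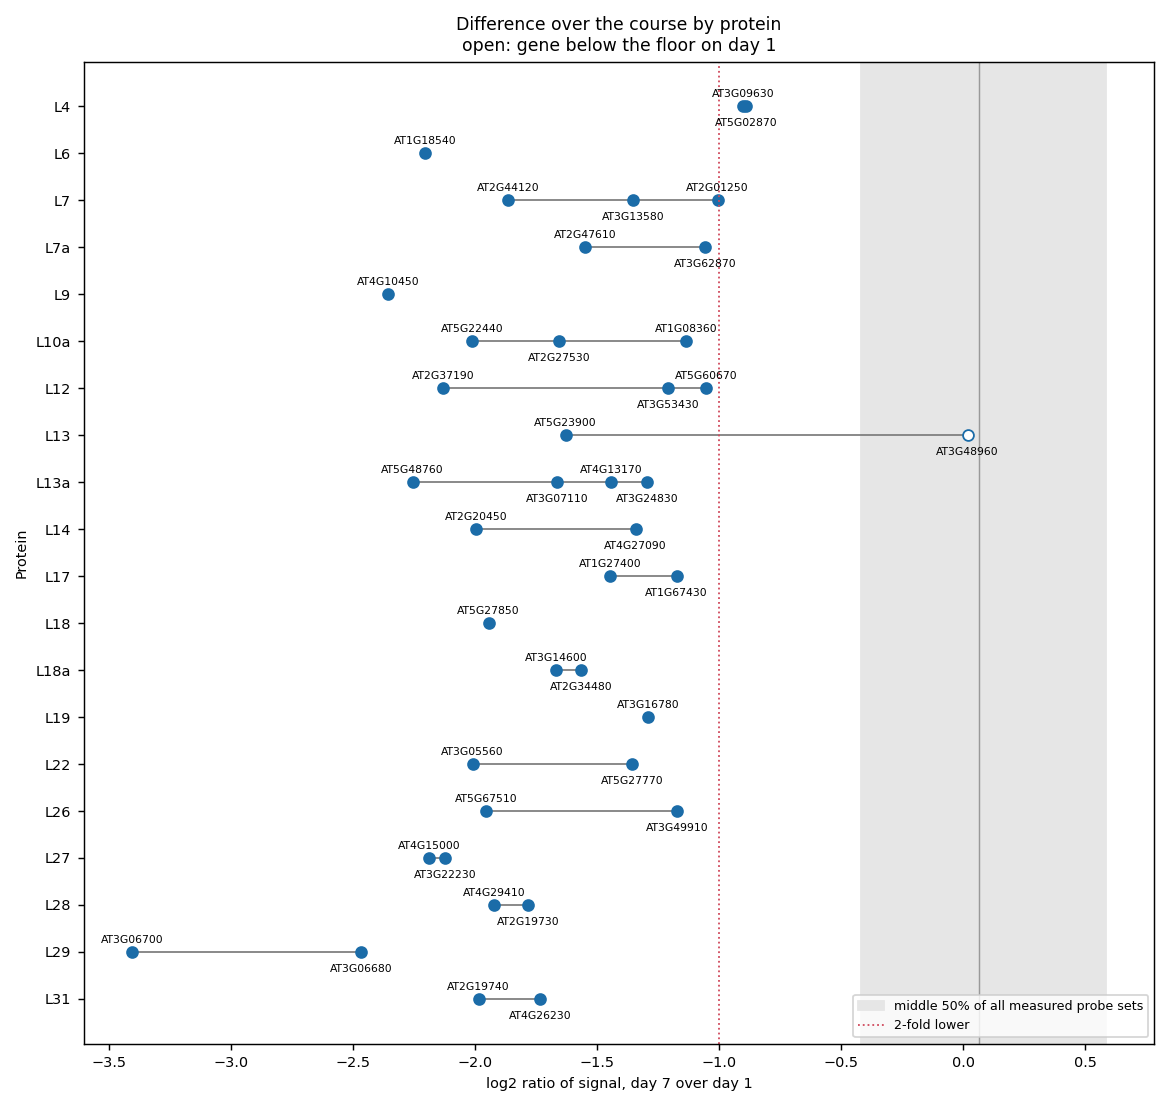
The log2 ratio of signal, day 7 over day 1 (x axis), for each gene, by protein (y axis), with 1 array per day; a line joins paralogs, the grey band is the middle 50% of all measured probe sets, the grey line their median, and the open circle is a gene below the floor on day 1. The 40 filled points lie between -3.40 and -0.89, all left of the band.

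The proteins are described by where they sit in the ribosome, as known from structures of yeast and mammalian ribosomes, beginning with those of the exit tunnel. L4 reaches into the tunnel wall, and its 2 genes were the most alike of all. AT3G09630 had signals of 2696, 2492, 1638 and 1443 on days 1, 3, 5 and 7. AT5G02870 had 2637, 2504, 1608 and 1424. Their log2 ratios of day 7 over day 1 were -0.90 and -0.89, the smallest differences among the 40 bright genes. Both were lower mainly between days 3 and 5, with ratios of -0.61 and -0.64. Paralogs as alike as these may share target sequence with each other's probes, and how much of a signal comes from the other gene was not tested.

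L17, which also lines the tunnel, had 2 genes with nearly the same course. AT1G27400 had log2 ratios of -0.21, -1.02 and -0.22 over the 3 steps and AT1G67430 had -0.04, -0.91 and -0.22, so both were lower mainly between days 3 and 5. L19, a long protein that bridges the subunits and also touches the tunnel exit, was represented by AT3G16780. Its ratios were -0.04, -1.08 and -0.17, a course like that of L17.

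L26, at the rim of the tunnel exit, had the least alike pair. AT3G49910 had signals of 2781, 2499, 1498 and 1233 and was lower on each day than on the day before. AT5G67510 had signals of 1016, 556, 694 and 262, with a second maximum on day 5. Between days 3 and 5 their log2 ratios were -0.74 and 0.32, a difference of 1.06, and between days 5 and 7 they were -0.28 and -1.41, a difference of 1.13. These were the largest differences between paralogs in those steps, and both rest on the day 5 signal of AT5G67510. Between probe sets of 1 gene, a difference of at least 1 was found for 6 of 96 genes in the middle step and for 3 in the last. AT5G67510 was the only one of the 41 genes higher on day 5 than on day 3. Over the whole course the log2 ratios were -1.17 and -1.96.

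L31, beside the exit, differed in timing but little in the end. AT2G19740 had signals of 892, 399.8, 377 and 225, so that it was already more than 2-fold lower by day 3. AT4G26230 had 2034, 1423, 849 and 612. The log2 ratios of AT2G19740 over the 3 steps were -1.16, -0.09 and -0.74, and those of AT4G26230 were -0.52, -0.75 and -0.47. Over the course the genes stood at -1.99 and -1.73. Among the 40 genes above the floor on all arrays, AT2G19740 was the only one whose largest decrease was in the first step.

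**Figure D2:**
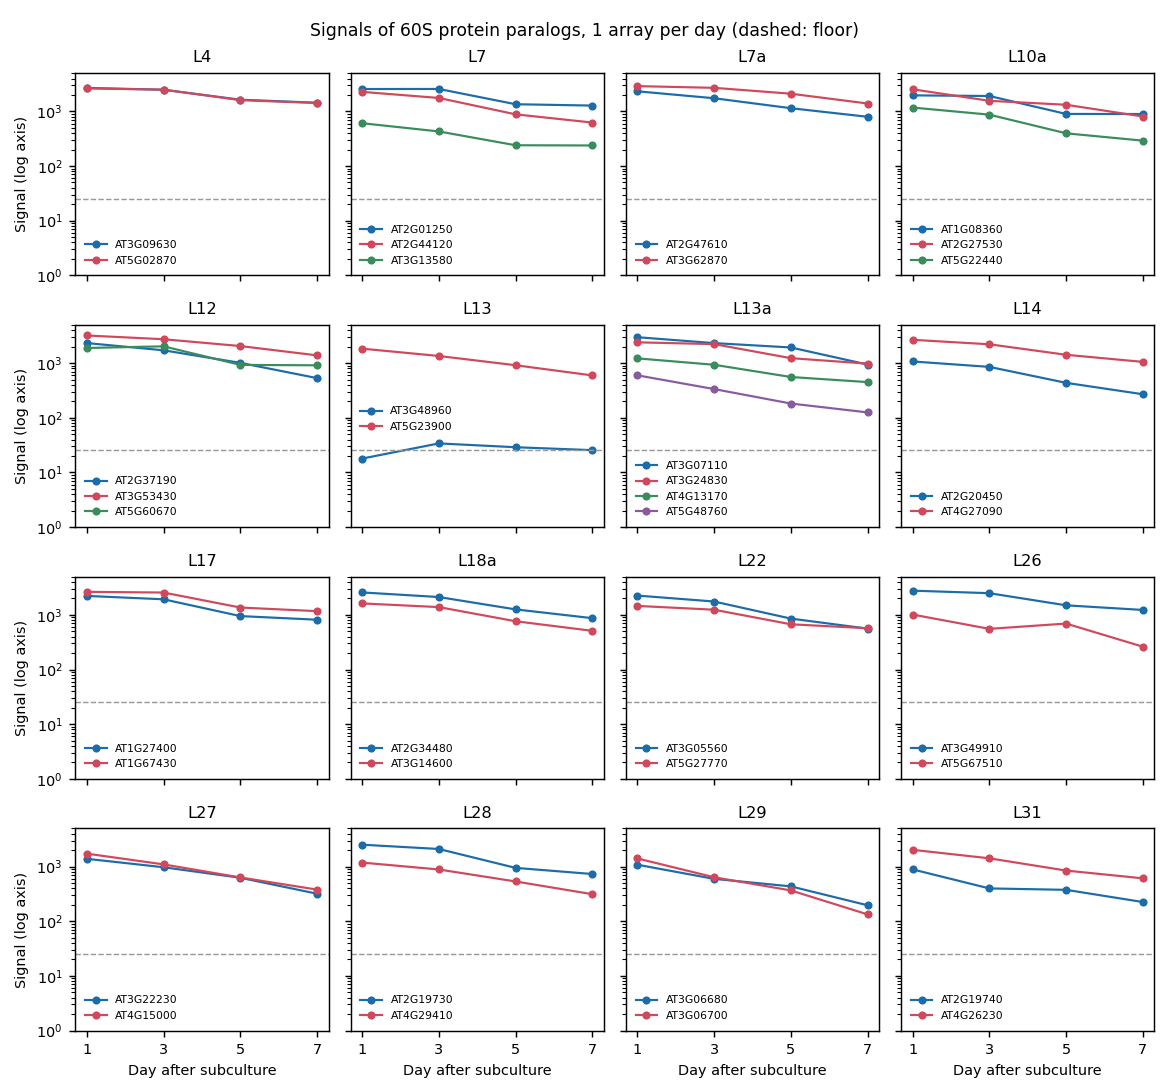
Signal (y axis, log scale) on days 1, 3, 5 and 7 (x axis) for the paralogs of each of the 16 proteins with at least 2 measured genes; each point is 1 array and the dashed line is the floor of 25.26. The L4 lines lie on each other, the L26 lines part on day 5, and AT3G48960 of L13 stays near the floor.

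A second group of proteins sits where translation factors and transfer RNAs pass. L10a forms the mobile stalk beside the exit site for transfer RNA, and its 3 genes differed in their steps to unequal degrees. AT1G08360 had signals of 1968, 1915, 899 and 896, a single step between days 3 and 5 (log2 ratio -1.09) with -0.04 before it and -0.01 after it. AT2G27530, known as PGY1, or PIGGYBACK1, had 2543, 1564, 1324 and 807, with ratios of -0.70, -0.24 and -0.71, so that the middle step was the smallest. AT5G22440 had 1177, 872, 397 and 292, lower at every step and most between days 3 and 5 (-1.13). Day 7 over day 1, the genes stood at -1.14, -1.66 and -2.01 in that order. Over the 3 steps the log2 ratios of AT1G08360 and AT5G22440 differed by 0.39, 0.04 and 0.44. Those of AT1G08360 and AT2G27530 differed by 0.66, 0.85 and 0.71, and those of AT2G27530 and AT5G22440 by 0.27, 0.89 and 0.27. Between 2 probe sets of 1 gene the median differences were 0.49, 0.26 and 0.27.

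L12, at the base of the acidic stalk, had the widest spread over the course, as deposited, of any protein whose genes were all above the floor. After quantile normalization that of L13a was wider, at 1.31 against 1.14. A spread is a range, so it tends to be wider with more paralogs. L12 had 3 here and L13a had 4, and the part of this number in the ranking was not tested. AT2G37190 had signals of 2333, 1720.3, 1013 and 532, AT3G53430 had 3212, 2742, 2057 and 1389, and AT5G60670 had 1896, 2033, 929.7 and 914. Their log2 ratios of day 7 over day 1 were -2.13, -1.21 and -1.05, a spread of 1.08. AT2G37190 and AT3G53430 were lower by more with each step (-0.44, -0.76 and -0.93 for the first, -0.23, -0.41 and -0.57 for the second). AT5G60670 had a single step between days 3 and 5 (-1.13), with 0.10 before it and -0.03 after it. It thus followed the course of AT1G08360 of L10a more closely than that of its own paralogs. L9, near the site where elongation factors bind, was represented by AT4G10450, with signals of 1436, 1117, 478 and 280.3. Its ratio of -1.22 between days 3 and 5 was the lowest of all 41 genes in that step, and it was 5.12-fold lower on day 7 than on day 1.

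The remaining proteins lie in the body and on the surface of the subunit. Of L7, AT2G01250 had signals of 2570.4, 2576, 1354 and 1279, a single middle step. AT2G44120 had 2279, 1764, 884 and 625, and AT3G13580 had 608, 429.7, 240.2 and 238. The log2 ratios of day 7 over day 1 were -1.01, -1.87 and -1.35. All 3 were lower by similar amounts between days 3 and 5 (a spread of 0.16 in log2 ratio), and the spread of 0.86 over the course came from the steps before and after. In the last step the log2 ratio was -0.50 for AT2G44120, against -0.08 and -0.01 for AT2G01250 and AT3G13580.

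The 2 genes of L7a had signals of 2334, 1743, 1145 and 797 (AT2G47610) and of 2905, 2702, 2109 and 1396 (AT3G62870). Their log2 ratios over the course were -1.55 and -1.06, and AT3G62870 differed from most other genes by a small middle step (-0.36) and a larger last one (-0.60). L6 was represented by AT1G18540, with signals of 1549, 1125, 584 and 336, a 4.61-fold difference over the course.

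L13 had a bright and a dim gene. AT5G23900 had signals of 1845, 1354, 917 and 596, with a log2 ratio of -1.63 over the course. AT3G48960 had signals of 17.9, 33.9, 28.9 and 25.6, below the floor on day 1 and at most 1.34-fold above it later. Its ratios are bounds or lie near the floor, so the spread of 1.65 between these paralogs sets a bright signal against one near background.

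L13a, which in human cells also has a role outside the ribosome in silencing inflammatory messenger RNAs, had the most paralogs on the array. AT3G07110 had signals of 2987, 2330.2, 1938 and 943. AT3G24830 had 2407, 2232, 1235 and 981. AT4G13170 had 1224, 935, 558 and 450.0, and AT5G48760 had 599, 336, 182 and 125. The last was the lowest over the course, at a log2 ratio of -2.26, against -1.66, -1.30 and -1.44 for the others in that order. AT3G07110 had its largest difference in the last step (-1.04, after -0.27 in the middle), AT3G24830 and AT4G13170 in the middle step (-0.85 and -0.74), and AT5G48760 had nearly equal first and middle steps (-0.84 and -0.88).

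For L14 and L22 the paralogs kept the same order of steps and differed in size. AT2G20450 of L14 had signals of 1075, 855, 436 and 269.7, and AT4G27090 had 2677, 2217, 1423 and 1056. Their log2 ratios over the course were -1.99 and -1.34. AT3G05560 of L22 had 2260.2, 1759.7, 857 and 561, and AT5G27770 had 1462, 1245, 674 and 570.2, with ratios of -2.01 and -1.36. In both proteins the difference between paralogs was 0.65.

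L18a and L27 had pairs with similar ratios over the course. AT2G34480 of L18a had signals of 2581, 2126, 1262 and 872, and AT3G14600 had 1624, 1391, 766 and 511, so their log2 ratios over the course were -1.57 and -1.67 and no step differed by more than 0.11. AT3G22230 of L27 had 1393, 976, 627 and 319.6, and AT4G15000 had 1732, 1102, 635 and 380.1, with ratios of -2.12 and -2.19. The steps of the L27 genes differed more, by 0.14, 0.16 and 0.23. These values are below the medians of 0.49, 0.26 and 0.27 between 2 probe sets of 1 gene. The largest decrease was in the last step for AT3G22230 (-0.97) and in the middle step for AT4G15000 (-0.80). For AT4G15000 the 2 largest decreases differed by only 0.06. L18 was represented by AT5G27850, with ratios of -0.10, -0.93 and -0.92 over the 3 steps.

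L28, a protein that budding yeast lacks, had genes with a similar ratio over the course and somewhat different steps. AT2G19730 had signals of 2525, 2108, 950.0 and 734, with its largest step in the middle (-1.15). AT4G29410 had 1189, 888, 536 and 313, with similar middle and last steps (-0.73 and -0.77). Over the course the log2 ratios were -1.78 and -1.92. In the RefSeq gene order AT2G19730 lies next to AT2G19740 of L31, with 0 coding genes between them. These neighbours differed in their first steps, with log2 ratios of -0.26 and then -1.15 for AT2G19730 against -1.16 and then -0.09 for AT2G19740.

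L29, among the smallest and most basic proteins of the subunit, had the genes with the lowest ratios of all. AT3G06700 had signals of 1416, 639.9, 367 and 134 and was 10.6-fold lower on day 7 than on day 1. AT3G06680 had 1086, 598, 436 and 196 and was 5.53-fold lower. Both had their largest difference in the last step (log2 ratios of -1.46 and -1.15) and the next in the first (-1.15 and -0.86), with the smallest in the middle. These paralogs lie close together in the RefSeq gene order, with 1 coding gene between them. The difference between them over the course was 0.94.

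**Figure D3:**
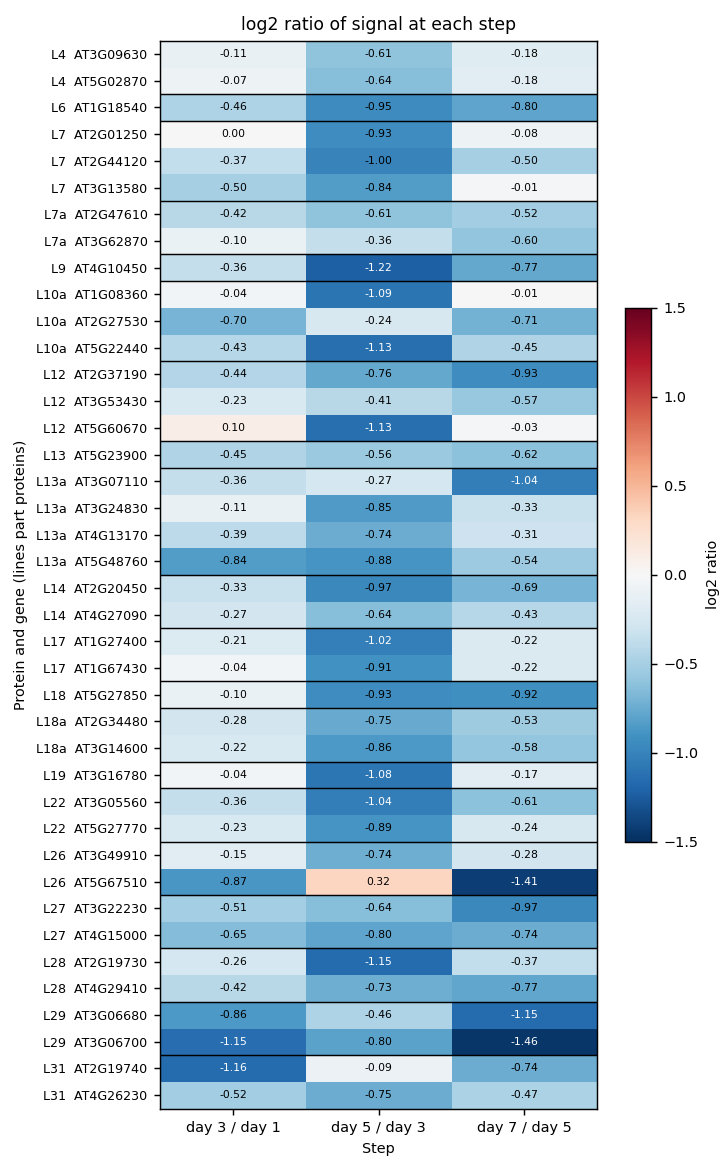
The log2 ratio of signal at each of the 3 steps (columns) for the 40 genes above the floor on all 4 arrays (rows, grouped by protein), 1 array per day, blue for lower and red for higher. The middle column is the darkest for most genes, and AT5G67510 of L26 is the one clearly red cell, at 0.32.

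Across proteins, the spread between paralogs over the course had a median of 0.65 log2 for the 16 proteins, which had 2 to 4 paralogs each. It was at least 1 for 2 of them, L13 and L12, and for 1 of 15 without the gene near the floor. Per step the median spread was 0.30, 0.33 and 0.34. Of the 15 proteins with genes above the floor on all arrays, 8 had paralogs with their largest decrease in different steps. For 7 of the 40 genes, though, the 2 largest decreases differed by less than 0.1. The largest decrease was in the middle step for 28 of the 40 genes, in the last for 11 and in the first for 1. The same count for groups of genes of different proteins was not made, so the 8 do not show that paralogs part in timing more than other genes.

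Pairs of paralogs and pairs of genes of different proteins had similar median differences, while large differences made up a smaller share of the paralog pairs. Over all pairs of the 40 bright genes, the absolute difference of the log2 ratios of day 7 over day 1 had a median of 0.50 for 26 pairs of the same protein (quartiles 0.23 and 0.81) and of 0.47 for 754 pairs of different proteins (quartiles 0.23 and 0.81). For 2 probe sets of 1 gene it was 0.55 over 96 genes, and 0.51 over the 6 genes whose signals were all at least as high as the lowest of the 40. By step the medians for paralogs, different proteins and probe sets of 1 gene were 0.28, 0.26 and 0.49 for day 3 over day 1, then 0.29, 0.27 and 0.26, and then 0.33, 0.34 and 0.27. Against the 96 genes, the median for paralogs was thus lower in the first step and over the course, and higher in the middle and last steps. Over the 6 bright genes the medians by step were 0.51, 0.23 and 0.48. Against these, the median for paralogs was higher in the middle step only. Taken over the 3 steps together, as a Euclidean distance, the median was 0.55 for paralogs and 0.60 for different proteins, with 11.5% and 17.5% of pairs at 1 or more. Between 2 probe sets of 1 gene this distance was larger, with a median of 0.75 over the 96 genes and 33.3% at 1 or more. Over the 6 bright genes the median was 0.76, with 16.7% at 1 or more. By this distance 5 of 35 genes had a paralog as their nearest gene, where each had 1 to 3 paralogs among 39 other genes: both genes of L4, both of L18a, and AT3G06700 of L29. Pairs share genes and all share the same 4 arrays, so these are descriptions with no test. Over the course 1 of 26 paralog pairs (3.85%) differed by 1 or more, against 117 of 754 pairs of different proteins (15.5%). AT3G06700 of L29, which lies far below the others, enters the second count many times.

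**Figure D4:**
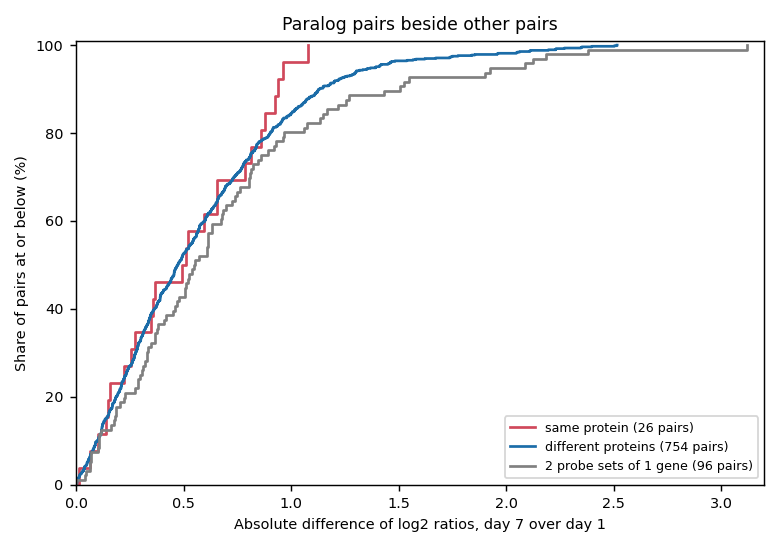
Share of pairs (y axis, %) at or below each absolute difference of log2 ratios of day 7 over day 1 (x axis), for pairs of paralogs, pairs of genes of different proteins and pairs of probe sets of 1 gene; 1 array per day. The lines for paralogs and for different proteins run together up to about 0.8, with medians of 0.50 and 0.47, and the line for probe sets of 1 gene lies to their right, with a median of 0.55.

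The brightness of a probe set moved with its ratio. The 20 brighter of the 40 genes had a median log2 ratio of -1.32 over the course and the 20 dimmer ones -1.99. Across the 40 genes the Pearson correlation of mean log2 signal with the ratio was 0.67 (Spearman 0.72) over the whole course, 0.73 for day 3 over day 1, 0.00 for day 5 over day 3 and 0.37 for day 7 over day 5. With the day 1 signal in place of the mean it was 0.47 over the course. The points share the 4 arrays. In 12 of 15 proteins the paralog with the brightest probe set had a smaller difference than the one with the dimmest, the exceptions being L4, L22 and L27. The mean signal includes the day 7 signal that also sets the ratio, so a gene that was lower by less ranks brighter by construction. Ranked by the day 1 signal, which enters the ratio the other way, it was 10 of 15, with L12 and L29 as further exceptions. Probes differ in affinity, so a brighter signal does not show a more abundant transcript, and the part of brightness in the differences between paralogs was not tested. The highest signals of any probe set on the arrays were 3642 to 4032, and the brightest of the 41 genes reached 3212. Genes with a lower ratio in the first step tended to have a lower one in the last (Pearson correlation 0.70, Spearman 0.66, over 40 genes). These 2 steps share no array, and both moved with brightness. The middle step ran the other way, with Pearson correlations of -0.47 with the first and -0.49 with the last (Spearman -0.38 and -0.39). It shares an array with each of them, whose signal enters the 2 ratios with opposite signs.

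**Figure D5:**
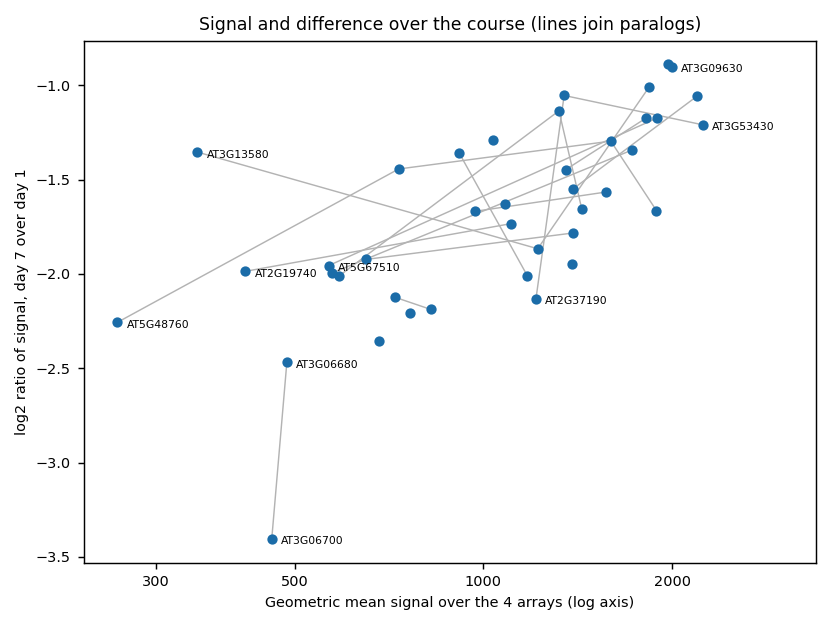
Geometric mean signal over the 4 arrays (x axis, log scale) and log2 ratio of day 7 over day 1 (y axis) of the 40 genes above the floor; each point is 1 gene and lines join paralogs. Dim probe sets lie lower, with AT3G06700 of L29 at -3.40, and AT3G13580 of L7 is a dim one that lies high, at -1.35.

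Some proteins have further paralogs outside the 60 loci. AT1G80750, of the L7 family, had a log2 ratio of -1.54 over the course. AT4G02230 of L19 had signals of 2248, 1824, 1432 and 1048, lower at each step by similar amounts (-0.30, -0.35 and -0.45), unlike AT3G16780 with its single middle step. AT5G56710 of L31 had ratios of -0.23, -1.18 and -0.16, a course different from those of AT2G19740 and AT4G26230. AT2G32220 of L27 had signals of 240.2, 141, 127 and 96.2 and a ratio of -1.32, a smaller difference than those of its paralogs. AT3G51190 of L8 and AT2G47570 of L18 had signals of at most 42.1 and 29.9, and AT1G02830 of L22 and AT1G12960 of L27a were below the floor on all arrays.

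The other cytosolic ribosomal protein genes were also lower on day 7 than on day 1 in most cases. Over the course the median log2 ratio was -1.32 for 27 other genes of the 60S subunit (20 at least 2-fold lower), -1.55 for 13 genes of the acidic stalk (11) and -1.50 for 44 genes of the 40S subunit (39). For the 3 steps the medians were -0.28, -0.66 and -0.40, then -0.26, -0.55 and -0.52, and then -0.27, -0.69 and -0.47 in the same order of lists. No difference between lists could be tested.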

How the data were processed

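Signals were MAS5 intensities on a linear scale deposited by the authors, 1 per probe set and array, with MAS5 named in the submitters' processing notes and its version not given in the sources used here. Of 22810 probe sets, 64 controls were left out. Signals were raised to a floor at the 40th percentile (25.26), since low MAS5 signals are unstable, and a probe set was measured where at least 1 of the 4 arrays lay above it. Groups are the days in the sample titles, 1 array each, so no test was made and counts use a 2-fold limit. The number of arrays limits the precision.

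The members and gene lists were chosen with earlier results of these data known. Genes were matched through the platform annotation and RefSeq's table (TAIR10.1), where all 60 loci were found. Of the 41 genes measured, 1 has a symbol there (PGY1), so genes are printed by locus code, and the protein each encodes was assigned from general knowledge of Arabidopsis ribosomal proteins. Of the other 19 genes, 3 have only probe sets of several genes (1 of L6, 2 of L32) and 16 are not listed. They are not analysed here. These leave L5, L8, L10, L11, L23a, L24, L27a and L32 without a gene. None of the 41 probe sets carries a suffix for cross-hybridisation. Signals on all 4 days are printed for every paralog of the 10 proteins with the largest and the 5 with the smallest spread, and for the 6 genes with the largest and the 6 with the smallest difference over the course. The spread of a protein is the highest minus the lowest log2 ratio among its paralogs, so it tends to be wider with more paralogs. Signals of different probe sets were not ranked as levels. Counting was tested on simulated data with 200 changed probe sets, all changed by more than the 2-fold limit. The simulated noise was smaller than the SD between probe sets of 1 gene. It thus checks the counting and not the precision of these data. Analyses used Python 3.11.15, numpy 2.4.6 and pandas 2.3.3.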

Additional observations from a re-analysis of the deposited data

How the results depend on the processing

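No paired analysis was possible because each day has 1 array. Medians below 0 stayed below 0 under all floors and scalings tried: -0.55 to -0.21 for day 3 over day 1, -0.86 to -0.66 for day 5 over day 3, -0.57 to -0.16 for day 7 over day 5 and -1.94 to -1.32 for day 7 over day 1. Scaling to the hybridisation controls gave -0.16 for day 7 over day 5, but moved all measured probe sets by 0.33 too, so the genes lay 0.49 below them, against 0.53 as deposited. The number of genes lower at each step ranged from 25 to 39. Counts at least 2-fold lower on day 3 against day 1 were 5 with a common median and 0 after quantile normalization, instead of 2. For day 5 against day 3 the count was 2 after quantile normalization, instead of 8, and for day 7 against day 5 it was 2 with the hybridisation controls, instead of 4. For day 7 against day 1 it was 28 after quantile normalization and 31 with the hybridisation controls, instead of 38. With a common median or a common 75th percentile it was 40. With a 1.5-fold limit the counts were 7, 32 and 17 over the 3 steps, and with a 3-fold limit 0, 0 and 0, and 22 over the course. The share of all measured probe sets was not counted under these other limits and scalings. These counts therefore have no background beside them. Proteins with a paralog spread of at least 1, which is 2-fold, numbered 4 after quantile normalization and 1 with the floor at the 50th percentile. Without AT3G48960 (an alternative chosen after seeing the data) they numbered 1. With the limit on the spread itself set to 1.5-fold or 3-fold in place of 2-fold, 9 and 1 proteins reached it. The cause of these shifts was not tested, except that a limit or the loss of AT3G48960 acts by construction. A median or a spread was taken as moved when it shifted by at least the SD between probe sets of 1 gene. A count was taken as moved when it changed by more than 1.5-fold, or to or from 0. By this rule 28 against 38 is not a move.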

Other observations

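Among the other genes of the 60S subunit, those of L37 were picked out after their values were known. AT1G52300 had signals of 2890.2, 3676, 1962 and 2138 and AT1G15250 had 547, 579, 337 and 363 on days 1, 3, 5 and 7. Both were slightly higher on day 3 than on day 1 (log2 ratios of 0.35 and 0.08) and on day 7 than on day 5 (0.12 and 0.10). These rises are smaller than the SDs of 0.57 and 0.30 between probe sets of 1 gene in those steps. Over the course the log2 ratios of the 2 genes were -0.43 and -0.59. The other L37 gene, AT3G16080, had signals of 1860.3, 1495, 771 and 583 and a ratio of -1.67. AT1G36240 of L30 had 1178, 1310.3, 463 and 545, with a ratio of -1.50 between days 3 and 5 and 0.24 between days 5 and 7, while its paralog AT1G77940 had -0.66 and -0.40. With 1 array per day none of these differences could be tested.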
